A study of Mus musculus with 4 samples.

Results

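The 10 nuclear genes whose products copy, package and transcribe mitochondrial DNA (mtDNA) or stabilise its mRNAs were followed here in fetal brown adipose tissue (BAT) of mice whose dams drank fructose. They were chosen by name for these roles, with no measured value as a criterion, although earlier results of these data were known. All 10 were found among the 22298 genes of the count table and were kept for testing. Of these, 4 take part in replication (Polg, Polg2, Twnk and Ssbp1), 4 in transcription (Polrmt, Tfam, Tfb2m and Tfb1m) and 2 in mRNA stability (Lrpprc and Slirp). BAT was taken at E18.5 from fetuses labelled C57BL/6 and male, whose strain the study's methods give as C57BL/6J. Their dams received sterilized tap water (control) or 20% (w/v) fructose (fructose) to drink up to delivery, and RNA was sequenced in 2 libraries per group. How many fetuses or litters stand behind each library is not given in the sources used here, so the p-values measure only the spread between these 4 libraries, which may be technical. Counts on genes totalled 18542897 to 23645147 per library. Levels are given as CPM, counts scaled to a common library total after TMM normalization (edgeR's correction for libraries whose RNA is dominated by different genes).

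Mitochondria keep a small circular genome of their own that encodes core subunits of the respiratory chain, ATP synthase and the mitochondrial ribosome's RNAs, while every protein that copies and reads it is made from nuclear genes and imported. POLG and its accessory subunit POLG2 synthesise mtDNA behind the helicase Twinkle (Twnk), with SSBP1 coating the exposed strand. POLRMT transcribes it from promoters that TFAM bends and TFB2M opens. BAT is packed with mitochondria, whose respiratory chain supplies the proton gradient that UCP1 turns into heat.

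Several features separated the groups across the whole table and stand beside every result that follows. The summed counts of the Y-linked genes Ddx3y, Eif2s3y, Kdm5d and Uty were 422 and 390 in control and 0 in both fructose libraries, although all fetuses were labelled male, so that fetal sex and fructose cannot be told apart here. Fold changes followed the sequence of the genes. Over 12884 tested genes with an annotated transcript, Spearman's rho of the log2 fold change was -0.52 with GC content and 0.47 with transcript length, as a description across genes, which are not independent replicates. The summed level of 8 skeletal muscle markers was 240.6 and 327 CPM in control and 764.3 and 561.8 CPM in fructose, with all 8 called higher. That of 7 erythroid markers was 19200 and 15290 CPM in control and 11770 and 12140 CPM in fructose, with 5 called lower. The 7 brown adipocyte markers, Ucp1 among them, summed to 14430 and 17090 CPM in control and 15470 and 13920 CPM in fructose, overlapping between groups, and 1 was called higher and 2 lower. Of pan-adipocyte markers 1 of 6 was called higher and 2 lower, of macrophage markers 1 of 6 each way, of proliferation markers 1 of 5 higher, and none of the 5 endothelial or 5 fibroblast markers either way, while the 4 liver markers had 3 counts or fewer in every library. The part of muscle, blood and sequence composition in the results below was not tested, apart from refits with the GC content and length trends removed.

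The promoters of the 10 genes were searched for the binding motifs of 2 regulators of nuclear genes for mitochondria, NRF1 (GCATGCGC, or GCGCATGC on the other strand) and the ETS factor GABPA (CCGGAAG, or CTTCCGG on the other strand). The motifs do not share these letters. Each promoter runs from 250 bases before to 50 after a RefSeq start (GRCm38.p6), and 1 of the 10 genes, Twnk, has a second one. The ETS letters were present for 7 of the 10 genes, in 7 of their 11 promoters. They were present in 8.86% of the 32851 promoters of the table and in 16.9% of the 12857 promoters of tested genes. The NRF1 letters were present for Polrmt and Tfb2m, in 2 of the 11 promoters, against 2.71% of all promoters and 5.03% of those of tested genes. Lrpprc and Tfb1m had neither run of letters in this window. The matches below are shown because Polrmt and Tfb2m were the pair of genes called between the groups, and because Tfam and Polg represent the larger number that hold only the ETS letters. Each window is 30 bases, written along the gene's strand with the match in capitals.
Polrmt, NRF1 letters, minus strand, chr10:79746696-79746725: agagtatttctGCGCATGCtctcttgccgc
Polrmt, ETS letters, minus strand, chr10:79746606-79746635: ccctaagagcgCTTCCGGcagtcgcagaac
Tfb2m, NRF1 letters, minus strand, chr1:179546245-179546274: ctaggtcgttcGCATGCGCcattcgtaatg
Tfam, ETS letters, minus strand, chr10:71238073-71238102: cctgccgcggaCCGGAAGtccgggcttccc
Polg, ETS letters, minus strand, chr7:79466293-79466322: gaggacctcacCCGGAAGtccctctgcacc
The first letter of the match lies 133 and 43 bases before the start in Polrmt, 47 in Tfam and 38 in Polg. In Tfb2m it is base 14 of the transcript. Slirp held 3 ETS matches within its promoter, at 146, 48 and 11 bases before the start, Ssbp1 held 1 at 47 bases and Polg2 1 at 29 bases. The matches of Twnk were in its second promoter, at 110 and 66 bases before that start. A match describes letters only, and binding was not measured.

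Of the 10 genes, Tfb2m was higher and Polrmt lower in fructose, and 8 were not called (edgeR's quasi-likelihood test, Benjamini-Hochberg adjusted p under 0.05 over 12888 genes). In bulk tissue, a lower level can mean fewer cells of a type or less RNA per cell, which cannot be told apart. One of 10 called higher stands beside 15.5% of all tested genes called higher, 1 of 10 called lower beside 10.7% called lower, and 20% called in either direction beside 26.2%, so calls were no more frequent among the 10 genes than in the whole table. Both fructose libraries lay above both control libraries for 4 of the 10 genes, where 33.4% of tested genes did so, and below them for 3, where 31.6% did so. The median log2 fold change of the 10 genes was 0.04, with a range from -0.34 to 0.48, beside 0.0025 for all tested genes. The summed level of the 10 genes was 408.2 and 427.8 CPM in control and 408.7 and 411.7 CPM in fructose, with overlapping groups.

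**Figure D1:**
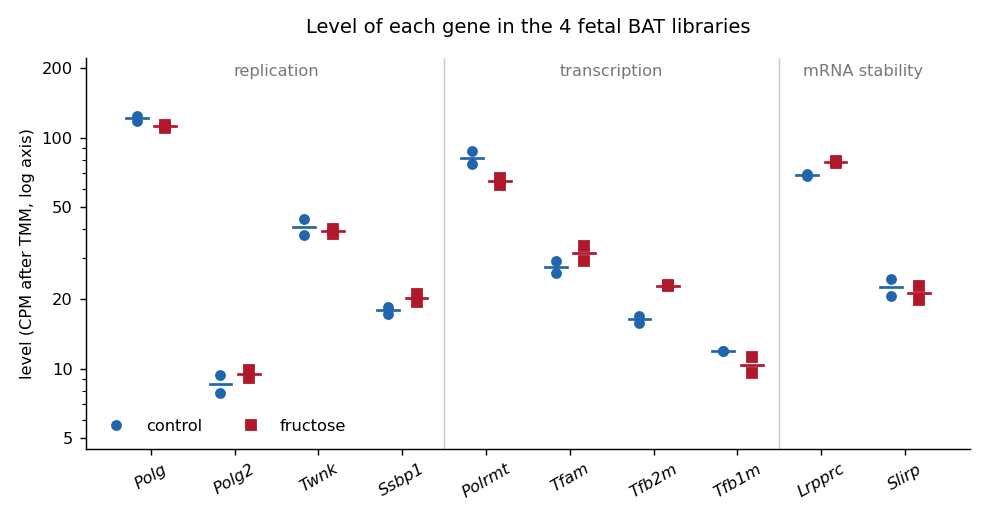
Level of each gene in CPM after TMM normalization, on a log axis, with circles for the 2 control libraries, squares for the 2 fructose libraries and a line at each group's mean. Fructose libraries sat above control for Tfb2m and below for Polrmt without overlap, while the Twnk, Polg2 and Slirp groups overlapped.

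The genes of the replication machinery were close in both groups, and none of the 4 was called. Polg, the catalytic subunit of the mtDNA polymerase (GRCm38 chromosome 7, 79446231 to 79466362, minus strand), was the most counted gene of the set, at 118.5 and 124.4 CPM in control and 110.4 and 113.5 CPM in fructose. The fructose libraries were the lower pair without overlap, but the fold change was 0.922 (95% interval 0.817 to 1.04, adjusted p = 0.30, edgeR). Its accessory subunit Polg2, which holds the polymerase on the template (chromosome 11, 106768253 to 106779537, minus strand), was the least counted, at 7.81 and 9.37 CPM in control and 9.86 and 9.10 CPM in fructose. The Polg2 groups overlapped, and the interval of its fold change, 0.863 to 1.41, spanned decreases as well as increases (adjusted p = 0.55, edgeR).

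Twnk, the replicative helicase (chromosome 19, 45005663 to 45012762, plus strand), was at 37.7 and 44.6 CPM in control and 38.2 and 40.3 CPM in fructose. Both fructose values fell between the control values, and the fold change was 0.955 (95% interval 0.818 to 1.12, adjusted p = 0.67, edgeR). Exons of Twnk share 507 bases, 12.6% of its exonic length, with Mrpl43 on the other strand, which was called lower (log2 fold change -0.30, adjusted p = 0.031, edgeR). Whether the counting used strand is not given in the sources used here, so reads in the shared bases cannot be assigned with certainty. Ssbp1, the single-stranded DNA-binding protein (chromosome 6, 40471352 to 40484700, plus strand), was at 18.4 and 17.3 CPM in control and 19.5 and 21.0 CPM in fructose. Its fructose libraries were the higher pair, with a fold change of 1.13 (95% interval 0.944 to 1.36, adjusted p = 0.29, edgeR). In sum, the 4 replication genes reached 182.4 and 195.7 CPM in control and 177.9 and 184.0 CPM in fructose.

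The transcription genes held both calls, in opposite directions. Tfb2m, the factor that melts mtDNA promoters for the polymerase (chromosome 1, 179528055 to 179546267, minus strand), had 299 and 306 counts in control and 517 and 561 in fructose, or 15.8 and 17.0 CPM against 22.9 CPM in both fructose libraries. The groups were well separated, and the means of 16.4 ± 0.841 and 22.9 ± 0.0299 CPM (SD, n = 2 each) gave a 1.40-fold increase (log2 fold change 0.48, SE 0.12, adjusted p = 0.012, edgeR). Its adjusted p was 0.058 without fructose library 2, in a fit that takes the lone fructose library to vary like the controls. Polrmt, the mitochondrial RNA polymerase itself (chromosome 10, 79736123 to 79746581, minus strand), was at 76.5 and 87.4 CPM in control and 67.1 and 62.2 CPM in fructose. Both fructose libraries lay below both controls, and the mean fell from 81.9 ± 7.72 to 64.7 ± 3.47 CPM (SD, n = 2 each), a 0.789-fold level (log2 fold change -0.34, SE 0.09, adjusted p = 0.018, edgeR). With control library 2 left out its adjusted p was 0.062, and with fructose library 2 left out 0.13.

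Tfam and Tfb1m, the other transcription genes, were not called. Tfam, which both activates mtDNA transcription and coats the genome (chromosome 10, 71225464 to 71238280, minus strand), was at 29.1 and 26.0 CPM in control and 29.3 and 33.8 CPM in fructose. The groups all but touched, since control library 1 and fructose library 1 differed by less than the gap within either group, and the fold change was 1.15 (95% interval 0.969 to 1.36, adjusted p = 0.21, edgeR). Tfb1m, a paralog of Tfb2m that methylates the RNA of the small mitochondrial ribosome subunit (chromosome 17, 3519256 to 3557781, minus strand), was at 11.9 CPM in both control libraries and at 9.60 and 11.2 CPM in fructose. It was the lower pair in fructose, with a log2 fold change of -0.19 and an adjusted p of 0.37 (edgeR), opposite in sign to Tfb2m. The summed level of the 4 transcription genes was 133.3 and 142.2 CPM in control and 128.8 and 130.1 CPM in fructose, since the loss in Polrmt was larger in CPM than the gain in Tfb2m.

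LRPPRC and SLIRP form a complex that binds mitochondrial mRNAs, protects them from decay and promotes their polyadenylation. Lrpprc (chromosome 17, 84705247 to 84790789, minus strand) was at 68.2 and 69.3 CPM in control and 79.2 and 77.8 CPM in fructose. The groups were tightly separated, and the 1.14-fold difference had an unadjusted p of 0.034 and an adjusted p of 0.097 (edgeR), short of the threshold. Slirp (chromosome 12, 87443896 to 87452206, plus strand) was at 24.3 and 20.6 CPM in control and 22.8 and 19.8 CPM in fructose, so its groups overlapped (fold change 0.947, 95% interval 0.782 to 1.15, adjusted p = 0.68, edgeR). Of the annotated exonic bases of Slirp, 93.9% are shared with transcripts of Snw1 on the other strand, which had 337 and 243 counts in control and 387 and 374 in fructose against 461, 372, 515 and 486 counts for Slirp, so the value of Slirp is uncertain.

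**Figure D2:**
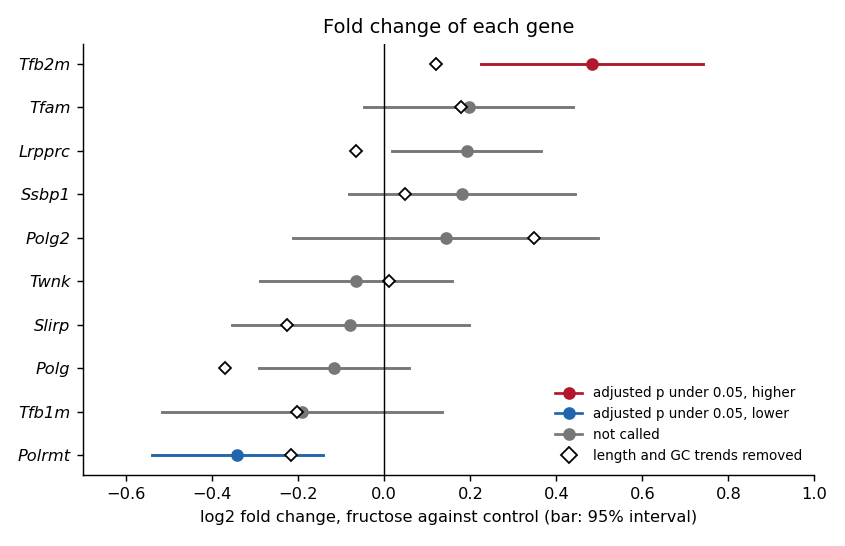
Log2 fold change of fructose against control for each gene with its 95% interval (circles and bars), coloured where the adjusted p was under 0.05, and the value after removal of the transcript length and GC content trends (diamonds). Tfb2m at 0.48 and Polrmt at -0.34 stood at the ends, and their diamonds at 0.12 and -0.22 were nearer to 0.

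Within each library, the 2 complexes of the set were also compared as ratios of levels per kilobase of transcript, which do not depend on the library's scaling. The log2 ratio of Lrpprc to Slirp was 0.16 and 0.42 in control and 0.47 and 0.64 in fructose, higher by 0.27 on average. This ratio shares the uncertainty of Slirp, most of whose exonic bases overlap Snw1. The log2 ratio of Polg to Polg2 was 1.54 and 1.35 in control and 1.11 and 1.26 in fructose, lower in fructose, with a mean difference of -0.26. On these levels neither pair of groups overlapped, and each gave p = 0.333 in a two-sided exact permutation test over libraries, the smallest that 2 against 2 libraries allow, so that a threshold of 0.05 could not be reached. After removal of both sequence trends (length and GC content), the Lrpprc to Slirp ratio was 0.25 and 0.44 in control and 0.42 and 0.58 in fructose, which overlapped (difference 0.16, exact permutation p = 0.667), and the difference in Polg to Polg2 was -0.72 (exact permutation p = 0.333). Without control library 1 the differences were 0.14 and -0.17.

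Per kilobase, Tfam had the highest control level of the set, at 30.6 CPM per kb, followed by Polrmt at 22.5 CPM per kb. Ssbp1, Lrpprc, Polg, Twnk and Slirp came next, between 15.9 and 12.8 CPM per kb, and in this run of 5 each gene overlapped with the next in the 2 control libraries. Tfb1m at 8.49, Tfb2m at 6.69 and Polg2 at 5.70 CPM per kb formed the low end. In fructose, Tfam kept the first place at 35.1 CPM per kb, Polrmt at 17.7 CPM per kb stood behind Ssbp1 at 18.0 and Lrpprc at 17.9 CPM per kb, and Tfb2m at 9.34 CPM per kb stood above Tfb1m at 7.43 CPM per kb. The order rests on the median length of the annotated basic transcripts. With the longest transcript in its place, the control level of Tfam was 6.60 CPM per kb and that of Ssbp1 4.06 CPM per kb, so the place of these genes depends on which transcript the tissue uses. The control level of Slirp was 8.32 CPM per kb with its longest and 28.0 CPM per kb with its shortest transcript, and that of Twnk 11.8 and 18.7 CPM per kb, which leaves their places uncertain too.

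The 2 called genes lay at the ends of the set's GC content. Transcripts of Tfb2m had 42.5% GC, the lowest of the set, and those of Polrmt 60.8% GC, the highest. Tested genes of similar GC content had medians of the same sign. The median log2 fold change was 0.52 in the twentieth of tested genes around 41.9% GC, 0.39 around 43.5% GC and -0.25 around 61.2% GC. Over the 10 genes, Spearman's rho of the log2 fold change was -0.59 with GC content and -0.30 with transcript length (n = 10 genes from the same 4 libraries, as a description). With both trends removed from the counts, 7.02% of tested genes were called in either direction and the median of the 10 genes was -0.03. The log2 fold change of Tfb2m was then 0.12 (adjusted p = 0.61, edgeR) and that of Polrmt -0.22 (adjusted p = 0.16, edgeR). Neither was called, whereas Polg, with the longest transcripts of the set at 7837 bases, was called lower at -0.37 (adjusted p = 0.018, edgeR).

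**Figure D3:**
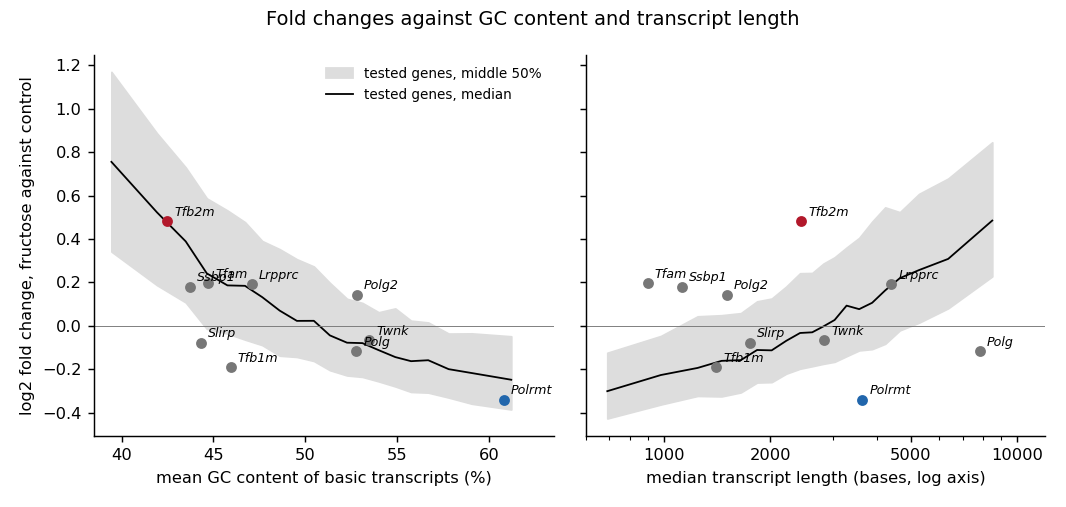
Log2 fold change of the 10 genes (points, red where called higher and blue where called lower) against the GC content and the length of their transcripts, over the median (line) and middle 50% (band) of tested genes in 20 bins. Tfb2m and Polrmt lie near the line for GC content. For length, Polg and Polrmt lie below the band, and Tfb2m, Tfam, Ssbp1 and Polg2 lie above it.

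The 49 other listed genes of mtDNA maintenance and RNA metabolism showed a like balance, with 5 called higher, 5 lower and 39 not called. The 20.4% called stood beside 26.2% of all tested genes, and the median log2 fold change of the 49 was -0.09. In replication and maintenance 1 of 11 was higher and 1 lower. Primpol, a primase-polymerase that restarts stalled forks, rose from 2.95 ± 0.088 to 6.60 ± 0.138 CPM (SD, n = 2 each, log2 fold change 1.16, SE 0.21, adjusted p = 0.0027, edgeR). Endog, a mitochondrial nuclease, fell from 128.6 to 91.1 CPM (log2 fold change -0.50, SE 0.08, adjusted p = 0.0016, edgeR). In nucleotide supply Mpv17, an inner membrane protein whose loss depletes mtDNA, was the 1 of 7 called, with a log2 fold change of -0.35 (adjusted p = 0.017, edgeR). Among the elongation factor Tefm and the MTERF family, 1 of 6 was called, Mterf2, at 4.33 and 3.11 CPM in control and 5.75 and 6.41 CPM in fructose (log2 fold change 0.71, adjusted p = 0.037, edgeR). DESeq2 did not call Mterf2 (adjusted p = 0.10), nor was it called by edgeR without control library 2 (0.16), fructose library 1 (0.056) or fructose library 2 (0.18), and Mpv17 was not called without control library 2 (0.061) or fructose library 1 (0.099).

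In RNA processing and the FASTK family, 1 of 13 was higher and 2 lower. Trmt10c and Hsd17b10, subunits of the same mitochondrial RNase P that frees tRNAs from the long transcripts, moved apart. Trmt10c rose from 4.87 to 7.37 CPM (log2 fold change 0.60, SE 0.19, adjusted p = 0.036, edgeR), while Hsd17b10 fell from 315.8 to 219.5 CPM (log2 fold change -0.53, SE 0.08, adjusted p = 0.0012, edgeR). Fastk, an RNA-binding protein needed for mt-Nd6 mRNA, fell from 351.9 to 265.2 CPM (log2 fold change -0.41, adjusted p = 0.0059, edgeR). Trmt10c lost its call in DESeq2 (adjusted p = 0.12) and in edgeR without control library 1 (0.060), fructose library 1 (0.22) or fructose library 2 (0.070), and Fastk was not called without fructose library 2 (0.070). None of the 4 rRNA modification genes was called. In polyadenylation and decay 1 of 5 was called, Pnpt1, the mitochondrial polynucleotide phosphorylase, which rose from 7.90 to 13.4 CPM (log2 fold change 0.76, adjusted p = 0.0054, edgeR). The matrix protease ClpXP also split, with its unfoldase Clpx higher, at 88.1 against 116.2 CPM (log2 fold change 0.40, adjusted p = 0.0058, edgeR), and its peptidase Clpp lower, at 143.2 against 105.2 CPM (log2 fold change -0.45, adjusted p = 0.0028, edgeR). Lonp1, the protease that degrades TFAM, was at 216.0 and 234.0 CPM in control and 212.7 and 197.7 CPM in fructose and was not called (adjusted p = 0.27, edgeR). With both trends removed, Primpol stayed higher (log2 fold change 0.83, adjusted p = 0.030, edgeR) and Hsd17b10 lower (-0.29, adjusted p = 0.043, edgeR). The phosphodiesterase Pde12 was then called lower (-0.61, adjusted p = 0.034, edgeR). The other 8 called genes of this list were then not called, among them Trmt10c (0.17), Clpx (0.15) and Clpp (-0.09) of the pairs above.

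**Figure D4:**
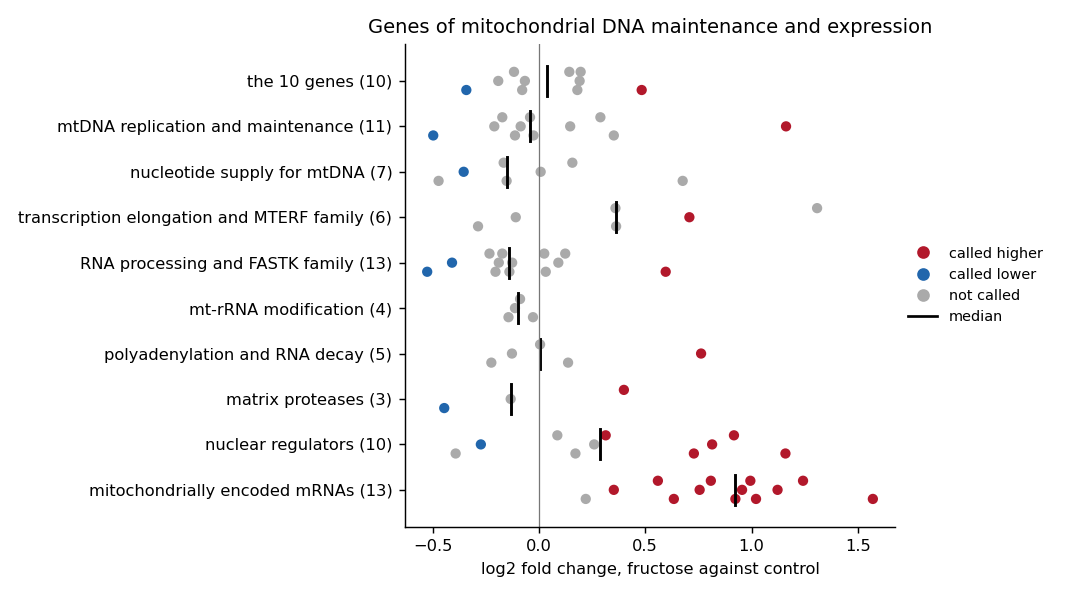
Log2 fold change of fructose against control for the 10 genes, the 7 roles of the 49 other genes, 10 nuclear regulators and 13 mitochondrially encoded mRNAs, one point per gene, coloured where called, with a line at each median. The regulators and mitochondrially encoded mRNAs sit mostly to the right of 0, with medians of 0.29 and 0.92, and the 10 genes sit around 0.04.

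Of 10 nuclear regulators of mitochondrial genes, 5 were called higher and 1 lower, beside 15.5% and 10.7% of all tested genes. Their median log2 fold change was 0.29. With both trends removed, 2 were called higher and 0 lower, beside 4.1% and 2.92% of all tested genes. Scaled by library size only, 6 were called higher, adding Sp1, and 0 lower. Ppargc1a, the coactivator induced in thermogenic fat, was at 6.91 and 7.49 CPM in control and 14.2 and 17.9 CPM in fructose, a 2.23-fold higher level (log2 fold change 1.16, SE 0.16, adjusted p = 0.00081, edgeR). The groups were far apart, and the difference was 0.79 with both trends removed (adjusted p = 0.011, edgeR). Its relative Ppargc1b was at 58.2 and 31.8 CPM in control and 72.2 and 77.1 CPM in fructose (log2 fold change 0.73, SE 0.19, adjusted p = 0.017, edgeR), and control library 2 alone set much of the gap, since without it the log2 fold change was 0.36, and without control library 1 it was 1.23. DESeq2 did not call Ppargc1b (adjusted p = 0.24). Pprc1, a further relative, was at 16.7 and 14.5 CPM in control and 12.3 and 11.5 CPM in fructose. Pprc1 was thus lower in both fructose libraries but was not called (log2 fold change -0.39, adjusted p = 0.058, edgeR). The DNA-binding subunit of the ETS factor, Gabpa, rose 1.76-fold, from 21.1 ± 3.81 to 37.1 ± 1.69 CPM (SD, n = 2 each, adjusted p = 0.0012, edgeR), and its partner Gabpb2 1.89-fold (adjusted p = 0.0025, edgeR). With both trends removed these had log2 fold changes of 0.36 and 0.41 and were not called (adjusted p = 0.070 and 0.14, edgeR). Gabpb1, the other listed partner of Gabpa, was not called in the main fit (log2 fold change 0.17, adjusted p = 0.40, edgeR).

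The DNA-binding factor Yy1 was the fifth regulator called higher (log2 fold change 0.31, adjusted p = 0.019, edgeR), with a value of 0.07 after trend removal. Esrra, a nuclear receptor that works with PGC-1 coactivators, was called lower, at 227.7 against 188.4 CPM (log2 fold change -0.27, adjusted p = 0.031, edgeR), with a value of -0.02 after trend removal. Neither was called without fructose library 1 (adjusted p = 0.086 for Yy1 and 0.056 for Esrra) or fructose library 2 (0.082 and 0.28), and DESeq2 did not call Yy1 (adjusted p = 0.060). Nrf1 was at 19.0 and 16.0 CPM in control and 18.7 and 18.5 CPM in fructose, with both fructose values between the controls (adjusted p = 0.66, edgeR). The 7 genes whose promoters held the ETS letters had log2 fold changes from -0.34 in Polrmt to 0.20 in Tfam, beside 0.81 for Gabpa. The pair with the NRF1 letters, Polrmt and Tfb2m, moved in opposite directions.

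The 13 mRNAs encoded by mtDNA itself, the template and product of these factors, summed to 59790 and 66710 CPM in control and 106800 and 108300 CPM in fructose. Of the 13, 12 were called higher, beside 15.5% of all tested genes, with a median log2 fold change of 0.92. With both trends removed their median was 0.34 and 4 were called higher, beside 4.1% of all tested genes. Beside them, the summed level of the 10 nuclear genes differed between the groups by less than the gap between the 2 control libraries. The skeletal muscle markers, from 240.6 and 327 to 764.3 and 561.8 CPM in sum, were higher in the same fructose libraries as the mitochondrially encoded mRNAs and the 5 regulators, and their part in these differences was not tested.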

How the data were processed

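RNA-seq of fetal BAT at E18.5 was deposited as raw counts per gene for 2 control and 2 fructose libraries. Per the paper's methods, the authors filtered reads with Fastp, mapped them to mm10 with Bowtie2 2.0.0.5 and Tophat 2.0.0, assembled transcripts with StringTie 2.2.0, merged them with Cuffmerge and took the count of each gene. The counting tool and its use of strand are not given in the sources used here. Groups came from the treatment labels of the samples, and the sample titles linked the samples to the count columns.

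Genes kept by filterByExpr (12888) were tested with edgeR 4.0.16 in R 4.3.3 (quasi-likelihood, two-sided, no covariate, all 4 libraries), and adjusted p-values cover all of them. Exact permutation tests used scipy 1.17.1. Symbols, coordinates, lengths (median over basic transcripts) and GC content came from GENCODE M21 (GRCm38), which lacked 43 listed genes. Trends with length and GC content were removed as lowess offsets (span 0.3). Other alternatives were DESeq2 1.42.0, its size factors in edgeR, library-size scaling, totals that leave out haemoglobin and mitochondrially encoded genes, other count filters, a replicate block and each library left out. On simulated counts for 12888 genes, 200 of them changed by 2-fold, edgeR found 81.5% of these 200 and also 13 genes that had not been changed. The simulated counts held no trend with length or GC content, and their change was larger than that of Tfb2m or Polrmt. They therefore give no error rate for the calls reported here.

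The 10 genes, the other lists and the tests were chosen with earlier results of these data known. The genes named are all 10 and, per role and among the regulators, those with an adjusted p under 0.05 (at most the 3 highest and 3 lowest). Tefm, Lonp1, Nrf1, Pprc1, Gabpb1, Pde12, Sp1, Snw1 and Mrpl43 were named after their values were seen. Intervals and p-values treat the 4 libraries as independent. Whether they are is not known, since the fetuses or litters behind each library are not given in the sources used here. Mitochondrial rRNAs and protein sequences were not analysed here.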

Additional observations from a re-analysis of the deposited data

How the results depend on the processing

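Called genes below are edgeR calls at an adjusted p under 0.05 unless DESeq2 is named. Trend removal changed the most. With the length trend removed, 2 of the 10 genes were called higher (Tfb2m and Tfam) and 2 lower (Polrmt and Polg). The shares of all tested genes were 10.02% and 8.18%. Pathway genes called higher and lower then numbered 6 and 3, regulators 3 and 1, and 13 mitochondrially encoded mRNAs were higher. With the GC content trend removed, 0 of the 10 genes were called either way, beside 7.77% of all tested genes higher and 7.604% lower. Pathway genes called higher and lower then numbered 1 and 5, regulators 5 and 0, and 1 mitochondrially encoded mRNA was higher. With both trends removed, 0 of the 10 genes were higher and 1 lower (Polg), beside 4.1% and 2.92% of all tested genes. Pathway genes called higher and lower numbered 1 and 2, regulators 2 and 0, and 4 mitochondrially encoded mRNAs were higher. Adding the replicate block to both trend removals left 0 of the 10 genes higher and 1 lower (Polg), beside 2.86% and 1.75% of all tested genes. It left 0 and 0 pathway genes, 2 and 0 regulators, and 3 mitochondrially encoded mRNAs. Reversed log2 fold changes were 0.0179 (Twnk), -0.1762 (Ssbp1) and -0.0887 (Tfam) with the GC trend removed, 0.0225 (Slirp) and -0.0091 (Yy1) with the length trend removed, 0.0109 (Twnk) and -0.0656 (Lrpprc) with both, and 0.0135 and -0.0659 for the same genes with both and the block. The cause of these changes was not tested. Library-size scaling called 2 of the 10 genes higher, adding Lrpprc, and 1 lower, beside 17.4% and 6.67% of all tested genes. It called 6 and 0 regulators higher and lower, and took the share of higher calls among all calls from 59.2% to 72.3%. DESeq2 called 3 pathway genes and 3 regulators higher, and 5 and 1 lower, beside 10.6% and 8.17% of all tested genes. The replicate block alone gave 1 of the 10 genes higher and 1 lower, and over all genes 2117 higher and 1441 lower against 2001 and 1379. Same-numbered libraries did not deviate together across genes (correlation -0.03), but 1 correlation from 4 libraries cannot show whether the numbers pair them.

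With each library left out in turn, 0 to 1 of the 10 genes were called higher (0 without fructose library 2) and 0 to 1 lower (0 without control library 2 or fructose library 2). Pathway genes called higher numbered 3 to 6 (3 without fructose library 2) and those called lower 4 to 10 (10 without control library 1), and regulators called lower 0 to 2 (2 without control library 2, 0 without either fructose library). Over all genes, 1266 to 2254 were called higher and 527 to 1685 lower. The log2 fold change ranged from -0.1828 to 0.0599 for Twnk and from -0.1924 to 0.0455 for Slirp. Without changing sign, it ranged from 0.02 (without control library 1) to 0.28 (without control library 2) for Polg2, from -0.31 (without fructose library 2) to -0.08 (without fructose library 1) for Tfb1m, and from 0.09 (without fructose library 2) to 0.30 (without fructose library 1) for Tfam, none of them called. Genes of low count, such as Polg2 at 148 to 223 counts per library, carried the widest intervals of the 10 genes.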
